A study of Homo sapiens with 3 samples.

Results

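The 10 genes of the Notch pathway followed across 3 human cell lines were chosen by symbol: the receptors NOTCH1, NOTCH2 and NOTCH3, the ligands JAG1, JAG2 and DLL1, the transcriptional targets HES1, HEY1 and NRARP, and ATOH1, a transcription factor gene that HES1 represses in the gut. Of these 10 genes, 7 had an array cluster of their own among 14410 named genes. The clusters of NOTCH2 and DLL1 each carried a further symbol. NRARP, which encodes a small feedback inhibitor of Notch, had no cluster listed under its symbol in the annotation used here and was not analysed here. HT-29 is a colon adenocarcinoma line, given interferon gamma (IFN-γ) at 200 U/ml for 24 h and grown in McCoy's 5A medium with 10% fetal bovine serum. MCF10A, a mammary epithelial line, was grown in DMEM/F12 with 5% horse serum, epidermal growth factor at 20 ng/ml, hydrocortisone at 500 ng/ml, cholera toxin at 100 ng/ml and insulin at 10 µg/ml. MDA-MB-436, a breast adenocarcinoma line, was grown in L-15 medium with 10% fetal bovine serum. Each line was measured on 1 exon array, so no difference has a replicate check and none was tested. HT-29 cells without IFN-γ were not analysed here, so in every comparison with HT-29 the line, its medium and the cytokine cannot be told apart.

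Notch receptors are single-pass membrane proteins that bind ligands of the Jagged and Delta families on neighbouring cells. Binding exposes the receptor to cleavage by ADAM proteases and then by γ-secretase, and the released intracellular domain joins the DNA-binding protein RBPJ and a Mastermind coactivator to switch on repressor genes of the HES and HEY families. In intestinal epithelium, cells with active Notch become absorptive, whereas cells that escape it express ATOH1 and become secretory. In mammary epithelium, Notch acts in the choice between basal and luminal fates.

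HES1 and JAG1 had the same order of the 3 lines, and the stretches upstream of both genes are printed for that reason. ATOH1 shared that order, but with both mammary values under the background defined below. It was also the order of 20.4% of the 10709 genes above background in at least 1 line. For HES1, HT-29 and MCF10A were 1.43-fold apart. Promoters were taken from RefSeq on GRCh38.p14, where 8 of the 10 genes had an entry that was used. HEY1 and DLL1 were not searched. The 250 bases before the gene start are shown 5′ to 3′ on the strand of the gene, at chr3:194135898-194136147 for HES1 (plus strand) and at chr20:10674000-10674249 for JAG1 (minus strand). Capitals mark the core of the RBPJ motif, TGGGAA, searched on both strands.
HES1: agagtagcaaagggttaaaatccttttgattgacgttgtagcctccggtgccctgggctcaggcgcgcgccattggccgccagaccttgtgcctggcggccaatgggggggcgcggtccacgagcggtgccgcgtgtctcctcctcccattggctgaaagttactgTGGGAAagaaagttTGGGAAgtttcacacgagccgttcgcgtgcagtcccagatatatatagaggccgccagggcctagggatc
JAG1: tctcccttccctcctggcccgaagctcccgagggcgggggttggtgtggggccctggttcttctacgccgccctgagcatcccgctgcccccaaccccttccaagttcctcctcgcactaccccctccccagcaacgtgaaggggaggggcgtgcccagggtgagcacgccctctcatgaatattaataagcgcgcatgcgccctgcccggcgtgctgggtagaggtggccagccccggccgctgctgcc
The HES1 stretch held 2 matches to TGGGAA, from 84 to 79 and from 70 to 65 bases before the start, with 8 bases between them. Among 35116 promoters of the same length, 20.8% held at least 1 match and 2.90% held 2 or more. In the JAG1 stretch these letters had no match, nor had they in those of NOTCH1, NOTCH2, NOTCH3, JAG2, NRARP and ATOH1. HES proteins also bind an N box, written here as CACNAG. That motif had 3 matches in the HES1 stretch, 1 each in those of ATOH1 and NOTCH3, and a match in 32.0% of all promoters, and its HES1 matches overlapped none of the TGGGAA matches. A match describes these letters in this window and not a bound site.

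Intensities were used as deposited, on a linear scale. Background was the 95th percentile of the values of 228 olfactory receptor genes, 29.9, and their highest value was 101. A gene was counted as different when the log2 difference between 2 arrays was at least 2 (4-fold) and its higher value was above background. Where 1 of the arrays was dimmer than that, the fold was taken against 29.9 and is a lower bound ("at least"). Brightness was compared between arrays for each gene and never between genes, because clusters differ in their probes. Medians over all clusters were 81 in MDA-MB-436, 75.1 in MCF10A and 75.9 in HT-29. The reference genes GAPDH and ACTB differed by at most 1.08-fold and 1.07-fold. Each line carried at least some of its markers. KRT20, a keratin of colon epithelium, was at 1348 in HT-29 and at most 12.4 elsewhere, although the intestinal cadherin gene CDH17 was under background in HT-29 at 21.3. KRT14, a basal keratin gene, was at 3732 in MCF10A, and the N-cadherin gene CDH2 was at 708 in MDA-MB-436. All 5 endothelial markers were under background on every array, 1 of 4 leukocyte markers was above it on each, and 1 to 2 of 4 fibroblast markers were. As a rough scale for noise, the SD of the log2 differences of the olfactory receptor genes was 0.80 between HT-29 and MDA-MB-436, 0.76 between HT-29 and MCF10A and 0.78 between the mammary lines. Those genes are dim, and the SD is not a replicate error.

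Among the receptors, NOTCH1 was brightest in MCF10A. The measured intensities were 111 in MDA-MB-436, 277 in MCF10A and 144 in HT-29. It was 2.50-fold dimmer in MDA-MB-436 (log2 difference from MCF10A, -1.32) and 1.92-fold lower in HT-29 (log2 difference -0.94), both beyond the olfactory receptor SD, while HT-29 and MDA-MB-436 were 1.30-fold apart, within it. Differences at least as large as that between the mammary lines were seen in 15.4% of the 10308 genes above background in either line. NOTCH1 lay above the highest olfactory receptor value on every array.

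NOTCH3, a receptor prominent in vascular smooth muscle, was dim throughout. The arrays read 60.2 in MDA-MB-436, 64.4 in MCF10A and 42.4 in HT-29. All 3 values lay above the background but under the highest olfactory receptor value, and the largest difference was 1.52-fold, within the olfactory receptor SD.

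The cluster listed for both NOTCH2 and NOTCH2NLA, a partial copy of NOTCH2, was brightest in MDA-MB-436, and its signal cannot be assigned to either gene. Its intensity was 834 in MDA-MB-436, 445 in MCF10A and 265 in HT-29. MDA-MB-436 was 3.15-fold above HT-29 (log2 difference of HT-29 minus MDA-MB-436, -1.65) and 1.87-fold above MCF10A (0.91). This cluster was highest in the line where NOTCH1 was lowest, while HT-29 was below MCF10A for both (log2 differences -0.75 and -0.94).

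**Figure D1:**
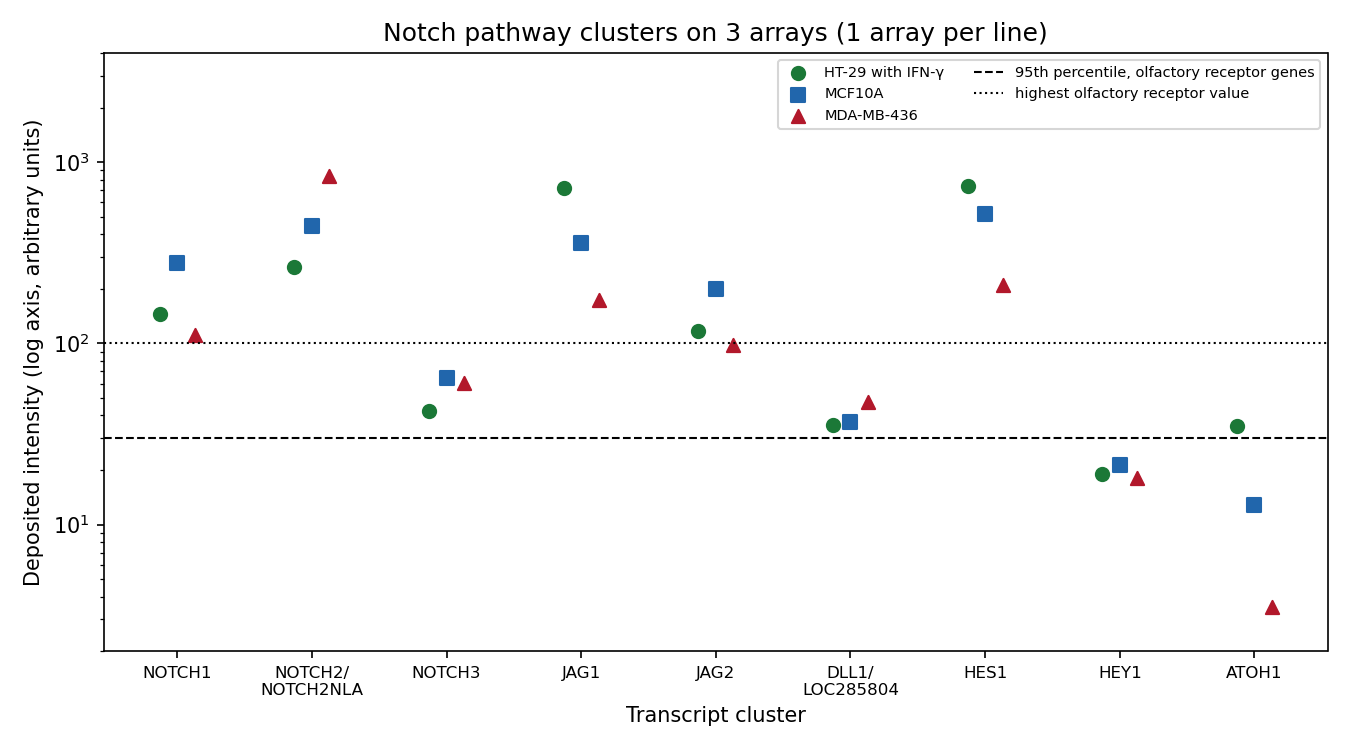
Deposited intensity (log axis, arbitrary units) of the 9 clusters listed for Notch pathway genes, with 1 point per array; the dashed line is the background of 29.9 and the dotted line the highest olfactory receptor value of 101. JAG1 and HES1 step down from HT-29 to MCF10A to MDA-MB-436, the NOTCH2/NOTCH2NLA cluster steps up, NOTCH1 and JAG2 are highest in MCF10A, and HEY1 lies under background on all 3 arrays.

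Of the 3 ligand genes JAG1, JAG2 and DLL1, JAG1 differed most. The measured intensities were 173 in MDA-MB-436, 356 in MCF10A and 723 in HT-29, all above the highest olfactory receptor value. HT-29 was 2.03-fold above MCF10A, MCF10A 2.06-fold above MDA-MB-436, and HT-29 4.19-fold above MDA-MB-436 (log2 differences 1.02 for HT-29 minus MCF10A, 2.07 for HT-29 minus MDA-MB-436 and -1.04 for MDA-MB-436 minus MCF10A). Both steps were thus about equal on the log2 scale. Both steps were under 2-fold after quantile normalization (0.995 for HT-29 minus MCF10A and -0.91 for MDA-MB-436 minus MCF10A).

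JAG2, the other Jagged ligand gene, followed the order of NOTCH1 instead. The arrays read 98.5 in MDA-MB-436, 199 in MCF10A and 117 in HT-29. It was 2.02-fold lower in MDA-MB-436 than in MCF10A (log2 difference -1.01) and 1.70-fold lower in HT-29 (-0.77). HT-29 and MDA-MB-436 were 1.18-fold apart, within the olfactory receptor SD. MCF10A was therefore above MDA-MB-436 for both Jagged genes, and these took opposite directions in HT-29 against MCF10A.

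The cluster listed for the Delta ligand gene DLL1 and for LOC285804 was dim, at 47.5 in MDA-MB-436, 36.6 in MCF10A and 35.2 in HT-29. The largest difference was 1.35-fold, within the olfactory receptor SD, and the signal cannot be assigned to either gene.

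Among the targets, HES1 was high in HT-29 and low in MDA-MB-436. Its intensity was 209 in MDA-MB-436, 514 in MCF10A and 734 in HT-29, all above the highest olfactory receptor value. HES1 was 2.46-fold lower in MDA-MB-436 than in MCF10A (log2 difference -1.30) and 3.52-fold higher in HT-29 than in MDA-MB-436 (1.82). HT-29 and MCF10A were 1.43-fold apart (0.51), within the olfactory receptor SD, so their order is the less certain one. Differences at least as large as that between HT-29 and MDA-MB-436 were seen in 13.9% of 10531 genes above background in either line.

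HEY1, a repressor gene of the same family as HES1, was under background in every line, at 18.2 in MDA-MB-436, 21.4 in MCF10A and 18.9 in HT-29. No fold is given for it, and a level of HEY1 was not detectable on these arrays.

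ATOH1 was above background in HT-29 only, and there by little. The measured intensities were 3.49 in MDA-MB-436, 12.8 in MCF10A and 35.2 in HT-29. The measured ratio of HT-29 to MDA-MB-436 was 10.1 (log2 difference 3.33), but against the background HT-29 was at least 1.18-fold higher than either mammary line. Its HT-29 value lay under the highest olfactory receptor value, so the size of this difference rests on values that cannot be told from background.

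In counts over the 7 genes with a cluster of their own, none passed 4-fold between MDA-MB-436 and MCF10A, where 3.65% of all named genes were higher and 2.01% lower. None passed it between HT-29 and MCF10A, against 4.34% higher and 3.50% lower of all genes. JAG1 and ATOH1 passed 4-fold with HT-29 above MDA-MB-436 by measured intensity and none was lower, against 4.21% and 4.68% of all genes, and setting values under background to the background left JAG1 alone. After quantile normalization JAG1 no longer passed (log2 difference 1.91), and ATOH1 alone remained.

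At 2-fold, 4 of the 7 genes (NOTCH1, JAG1, JAG2 and HES1) were lower in MDA-MB-436 than in the other mammary line and none higher, where 8.74% of all named genes were lower and 8.76% higher. JAG1 and JAG2 stood close to the limit, and after quantile normalization both were under 2-fold (JAG2 at a log2 difference of -0.98). Between HT-29 and MCF10A, JAG1 and ATOH1 were higher and none lower, against 10.2% and 10.1% of all genes. Between HT-29 and MDA-MB-436, JAG1, HES1 and ATOH1 were higher and none lower, against 11.5% and 11%. ATOH1 entered both counts through its HT-29 value of 35.2 over values under background, and with these set to the background it fell out of both (log2 difference 0.23), which left 1 gene against MCF10A and 2 against MDA-MB-436. All 3 comparisons share arrays, so these counts are not separate evidence.

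The median log2 difference of the 7 genes was -1.04 for MDA-MB-436 minus MCF10A, 0.38 for HT-29 minus MDA-MB-436 and -0.18 for HT-29 minus MCF10A, beside medians over all genes of 0.018, 0.076 and 0.11. With values under background set to the background, the medians of the 7 genes were -1.01, 0.24 and 0 in that order. The -0.18 was the value of HEY1, which was under background on both arrays. MDA-MB-436 was below MCF10A for all 7 genes, HEY1 and ATOH1 among them under background in both, as were 48.9% of all named genes. The smallest of these differences was that of NOTCH3 (-0.096). The shared clusters of NOTCH2 and DLL1 were higher in MDA-MB-436.

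**Figure D2:**
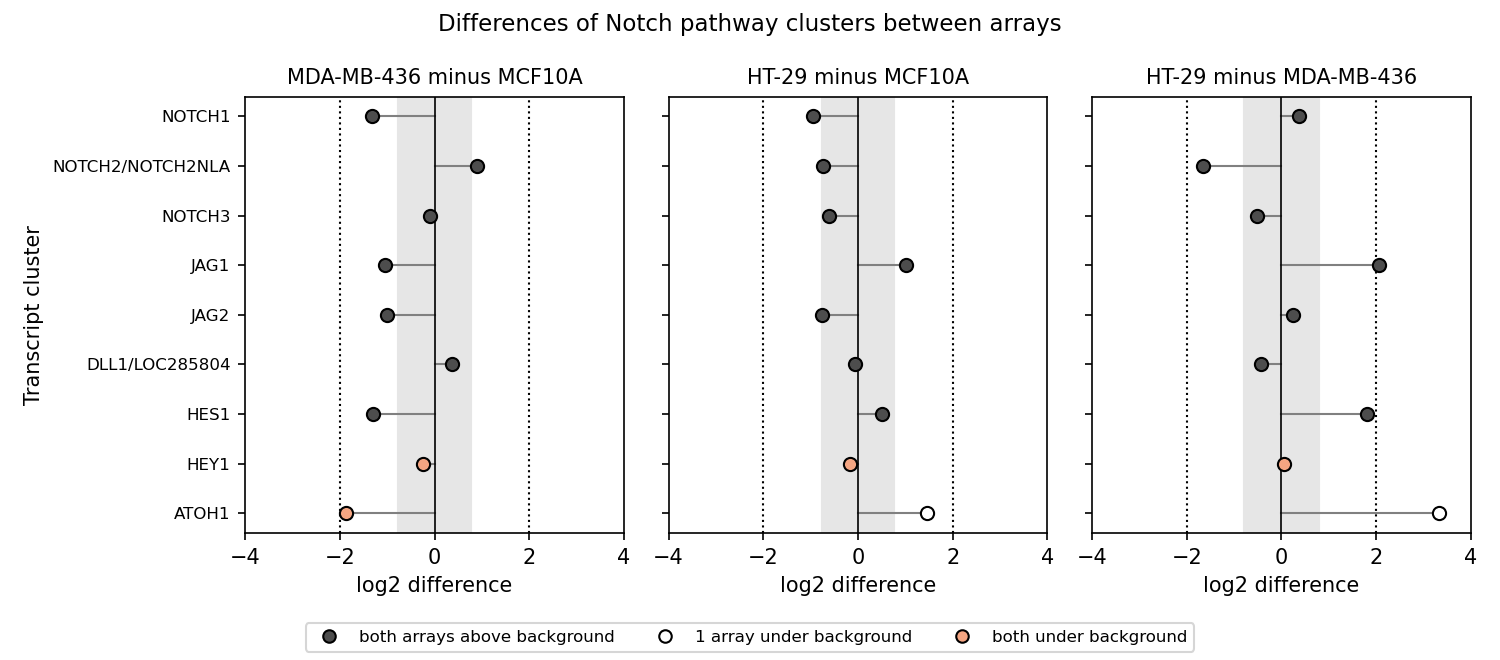
Log2 differences between pairs of arrays for the 9 clusters; the grey band is 1 SD of the olfactory receptor genes to either side of 0, dotted lines mark 4-fold, and point fill shows whether the arrays were above background. NOTCH1, JAG1, JAG2 and HES1 lie left of the band in MDA-MB-436 minus MCF10A (-1.32, -1.04, -1.01 and -1.30), and JAG1 and HES1 lie right of it in HT-29 minus MDA-MB-436 (2.07 and 1.82).

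By order of the lines, JAG1, HES1 and ATOH1 ran from HT-29 over MCF10A down to MDA-MB-436, an order held by 20.4% of the 10709 genes above background in at least 1 line. NOTCH1, JAG2 and HEY1 were highest in MCF10A and lowest in MDA-MB-436, as were 16.3% of those genes, and NOTCH3 alone was highest in MCF10A and lowest in HT-29 (17.1%). The orders of HEY1 and ATOH1 rest on values under background. No gene with a cluster of its own was highest in MDA-MB-436. All 9 colon epithelium markers were brightest in HT-29, as JAG1 and HES1 were. For HES1 the step over MCF10A was within the olfactory receptor SD. So were the steps of CDX1 over MDA-MB-436 (1.04-fold) and CDX2 over MCF10A (1.41-fold), and CDH17 was under background on every array. The summed intensity of the 9 markers was 16125 in HT-29 (8 of 9 above background), 3135 in MCF10A (4 of 9) and 1803 in MDA-MB-436 (5 of 9). The keratins KRT8 and KRT18 made up 2659 of the MCF10A sum and 1631 of the MDA-MB-436 sum. Between these lines 5 of the 9 markers were brighter in MCF10A, and 4 were dimmer there. All 6 mesenchymal markers were brightest in MDA-MB-436 and 5 were dimmest in HT-29, with sums of 102 in HT-29 (0 of 6 above background), 2458 in MCF10A (4 of 6) and 4342 in MDA-MB-436 (6 of 6). VIM (1.05-fold) and FN1 (1.41-fold) differed between the mammary lines by less than the olfactory receptor SD. These 2 made up 2334 of the MCF10A sum and 2601 of the MDA-MB-436 sum. The other mesenchymal markers summed to 125 in MCF10A and 1741 in MDA-MB-436. The part of epithelial or mesenchymal state in the Notch differences was not tested.

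The rest of the pathway was described from 7 lists with 81 genes, of which 64 had a cluster of their own. Past 4-fold were 9 higher and 2 lower in HT-29 relative to MCF10A (14.1% and 3.12%, against 4.34% and 3.50% of all genes), 7 higher and 1 lower in HT-29 relative to MDA-MB-436 (10.9% and 1.56%, against 4.21% and 4.68%), and 3 higher and 0 lower in MDA-MB-436 relative to MCF10A (4.69% and 0%, against 3.65% and 2.01%). The intestinal secretory lineage list gave 6 of the 9 and 5 of the 7. Without it, 3 of 51 genes (5.88%) were higher in HT-29 than in MCF10A and 2 of 51 (3.92%) than in MDA-MB-436, near the shares of all genes. With values under background set to the background, the counts over the 64 genes became 7 higher and 2 lower (3.42% and 2.76% of all genes), 5 and 0 (3.59% and 3.15%), and 1 and 0 (2.13% and 1.7%) in the same order of comparisons.

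Among other receptors and ligands, DLL4, a Delta ligand gene best known from blood vessel sprouting, was at 18.5 in MDA-MB-436, 16.8 in MCF10A and 122 in HT-29, at least 4.07-fold higher in HT-29 than in either mammary line. DLK2, which encodes a non-canonical ligand, was at 76.9 in MDA-MB-436, 265 in MCF10A and 62.5 in HT-29, 4.24-fold lower in HT-29 than in MCF10A, a difference that fell short of 4-fold after quantile normalization. By measured intensity both ranges exceeded the 4.19-fold range of JAG1, but the lower bound of 4.07-fold for DLL4 did not. HT-29 was thus the brightest array for both JAG1 and DLL4. The median log2 differences of the 4 genes of this list with a cluster of their own were 0.15 between the mammary lines (MDA-MB-436 minus MCF10A), -0.14 for HT-29 minus MDA-MB-436 and 0.0024 for HT-29 minus MCF10A. DLL3 and DLK1 were under background on every array. With values under background set to the background, each of these medians was 0.

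Genes that cleave and modify the receptors gave no difference past 4-fold. Of 5 measured processing genes, none passed 4-fold in any comparison, and the list medians in the same order of comparisons were 0.12, -0.25 and -0.29. The largest difference was that of APH1B, a γ-secretase subunit gene, at 169 in MDA-MB-436, 73.2 in MCF10A and 58.7 in HT-29, a 2.89-fold range. Of 6 measured glycosylation genes none passed 4-fold either (medians -0.24, 0.37 and 0.034 in that order). LFNG, a Fringe glycosyltransferase that alters which ligands a receptor answers to, was at 61.9 in MDA-MB-436, 52.2 in MCF10A and 159 in HT-29, 3.05-fold higher in HT-29 than in MCF10A.

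Of 11 genes of endocytosis and turnover, DTX3L and DTX3, both of the Deltex ubiquitin ligase family, passed 4-fold by measured intensity. DTX3L, which is also an interferon-induced gene, was at 820 in MDA-MB-436, 234 in MCF10A and 2389 in HT-29, 10.2-fold higher in HT-29 than in MCF10A. DTX3 was at 57.3, 13.5 and 12.8 in the same order of lines, so that MDA-MB-436 was at least 1.92-fold above the other lines. With values under background set to the background DTX3 no longer passed 4-fold, and at the 99th percentile filter it did not pass either. Between the mammary lines it was lost after quantile normalization and median centring too. NUMB, an inhibitor of Notch that is given for its role, spanned 1.77-fold, and the list medians, ordered likewise, were 0.0075, 0.38 and 0.13.

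Of 15 genes of the nuclear complex and its corepressors, only MAML3 passed 4-fold. This Mastermind coactivator gene was at 46.7 in MDA-MB-436, 67.3 in MCF10A and 363 in HT-29, 5.40-fold higher in HT-29 than in MCF10A and 7.77-fold higher than in MDA-MB-436. The related MAML1 and MAML2, given for comparison, differed less. MAML1 spanned 1.31-fold and MAML2 2.32-fold, the latter highest in MCF10A. RBPJ, which lies outside the naming rule and is given for its role, was at 625 in MDA-MB-436, 393 in MCF10A and 591 in HT-29, a 1.59-fold range with MCF10A lowest. All its differences were within the olfactory receptor SD, so no order of the lines was read for RBPJ. The list medians were 0.12 for MDA-MB-436 minus MCF10A, 0.31 for HT-29 minus MDA-MB-436 and 0.25 for HT-29 minus MCF10A.

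Of 10 other reported Notch targets, only HES7 passed 4-fold with both arrays above background. HES7, a repressor gene of the somite clock, was at 141 in MDA-MB-436, 263 in MCF10A and 41.2 in HT-29. It was 6.37-fold lower in HT-29 than in MCF10A. HES1 was 1.43-fold higher in HT-29 in that comparison, within the olfactory receptor SD, so no opposite direction was read. HEY2 passed 4-fold by measured intensity in MDA-MB-436 over MCF10A, at 32.5, 8.06 and 20.8 in the same order of lines. Against the background it was at least 1.09-fold higher. Its 4-fold call was lost with values set to the background, at the 99th percentile filter, after median centring and after quantile normalization. In the same order of comparisons the medians were -0.28, 0.37 and 0.28, and setting values under background to the background brought them to -0.041, 0.050 and 0. HES1 was lowest in MDA-MB-436 and HES7 in HT-29, while the orders of HEY1 and HEY2 rest on values under background.

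**Figure D3:**
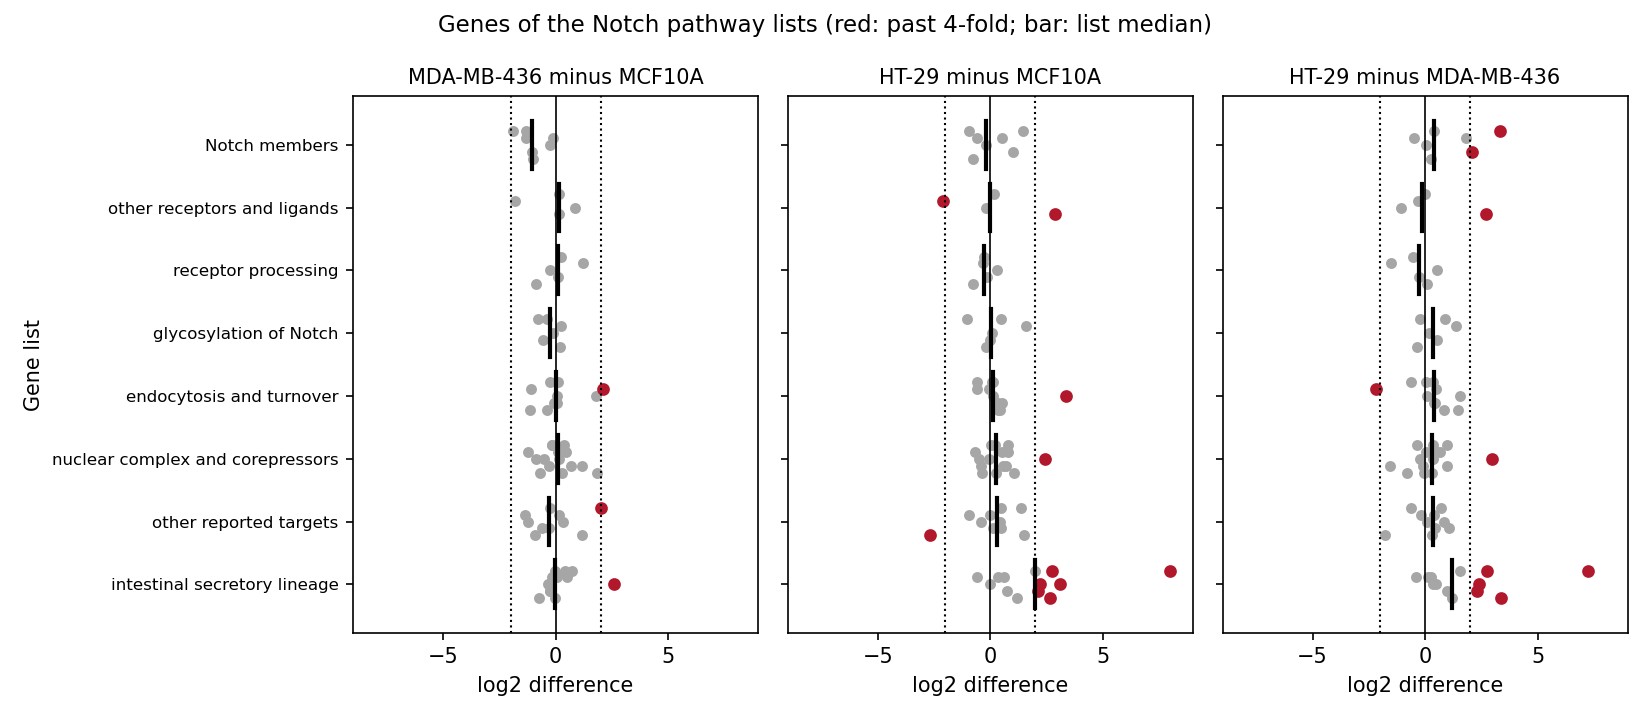
Log2 differences of the genes with a cluster of their own in each Notch list, 1 point per gene, for the 3 pairs of arrays; black bars are list medians, red points passed 4-fold and dotted lines mark 4-fold. The secretory lineage list is shifted to the right in both comparisons of HT-29 (medians 1.97 and 1.19), and the Notch members to the left in MDA-MB-436 minus MCF10A (median -1.04).

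Of 13 measured genes of the intestinal secretory lineage, which ATOH1 heads, 6 passed 4-fold with HT-29 above MCF10A by measured intensity and 5 with HT-29 above MDA-MB-436, and none was as much lower, where 4.34% and 4.21% of all genes were as much higher. With values under background set to the background, 4 (SPDEF, FOXA1, CREB3L1 and AGR2) and 3 (SPDEF, FOXA1 and AGR2) of the 13 passed, against 3.42% and 3.59% of all genes. The list medians were 1.97 and 1.19 (1.28 and 0.999 with values under background set to the background). Of this list, between the mammary lines only CREB3L1, a transcription factor gene of secretory cells, passed 4-fold, with MDA-MB-436 at least 4.60-fold above MCF10A (median of the list -0.012).

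SPDEF, a transcription factor gene of goblet cells, was at 32.6 in MDA-MB-436, 32.7 in MCF10A and 219 in HT-29, 6.70-fold higher in HT-29 than in MCF10A and 6.73-fold higher than in MDA-MB-436. FOXA1, a pioneer factor gene shared by gut and luminal breast, was at 100.3, 165 and 1031 in the same order of lines, 6.24-fold above MCF10A and 10.3-fold above MDA-MB-436. AGR2, which encodes a protein disulfide isomerase that mucin folding needs, was at 4.64, 2.78 and 701, at least 23.4-fold higher than in either line. CREB3L1 was at 138, 22.6 and 192, at least 6.40-fold higher in HT-29 than in MCF10A and 1.39-fold above MDA-MB-436. TFF3, a goblet cell peptide gene, was at 14.0, 15.9 and 72.6, at least 2.43-fold higher, and FCGBP, a mucus protein gene, at 21.0, 24.6 and 106, at least 3.53-fold higher. These 6 genes were brightest in the line with the highest HES1 and the highest ATOH1 values.

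Not all of the lineage was bright in HT-29. GFI1, a secretory transcription factor gene downstream of ATOH1, was at 24.9 in MDA-MB-436, 23.5 in MCF10A and 29.6 in HT-29, under background throughout, and the goblet cell gene SPINK4 was at 9.81, 6.97 and 10.7. BEST2, a channel gene of goblet cells, was also under background throughout and lowest in HT-29 (7.90, against 11.8 in MCF10A). The enteroendocrine factor gene INSM1 was at 55.7, 70.8 and 70.2 in that order, 1.01-fold apart between HT-29 and MCF10A. These 4 genes lie outside the naming rule and were chosen after their values were seen. FOXA1 and AGR2 are also expressed in luminal breast cells, so the list does not mark gut alone.

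**Figure D4:**
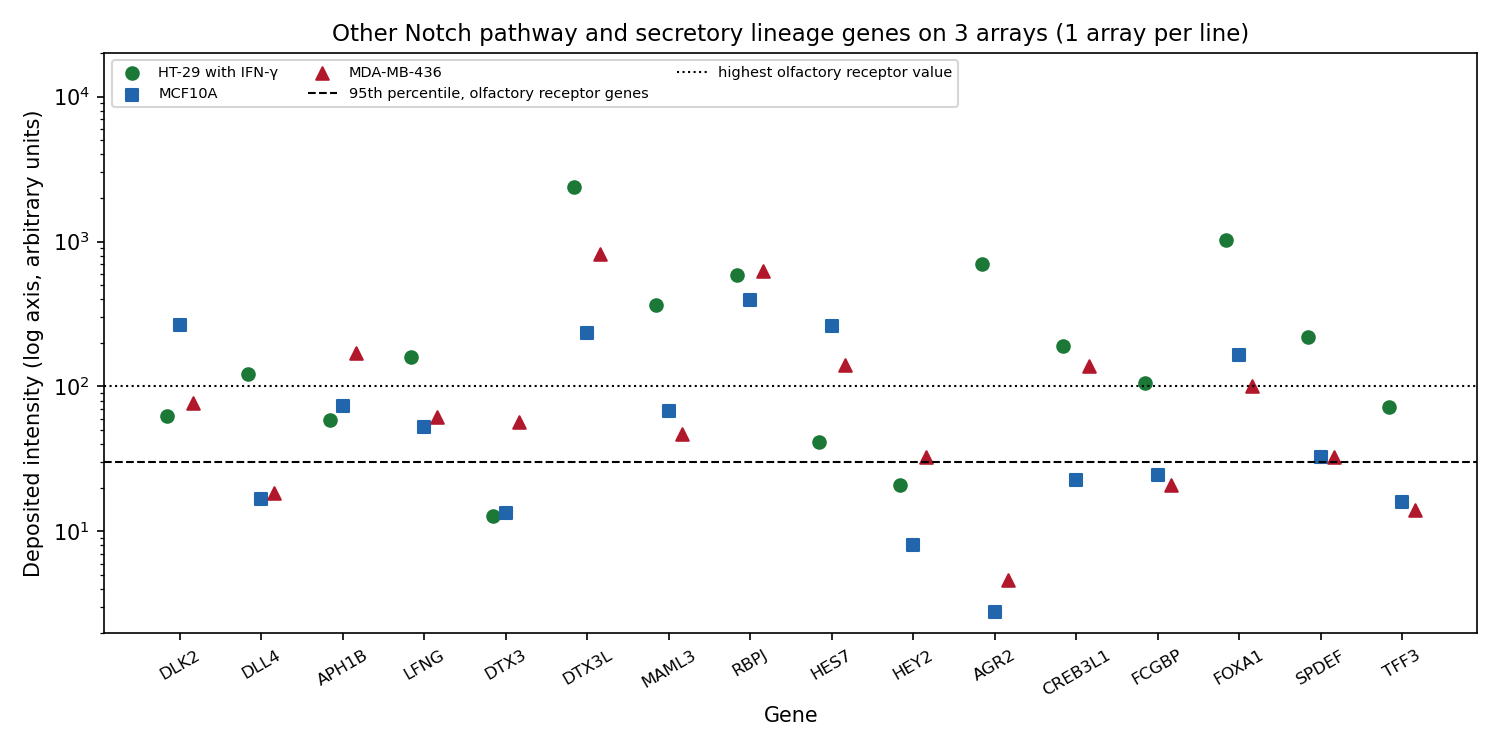
Deposited intensity (log axis, arbitrary units) of 16 other Notch pathway and secretory lineage genes, with 1 point per array; dashed and dotted lines are the background of 29.9 and the highest olfactory receptor value of 101. DLL4, LFNG, MAML3, SPDEF and FOXA1 are brightest in HT-29, HES7 and DLK2 in MCF10A, and APH1B and DTX3 in MDA-MB-436.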

How the data were processed

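Per the labels' protocols, biotin-labelled material from total RNA went onto exon arrays. The authors deposited 1 intensity per transcript cluster and array on a linear scale, for 18708 clusters. Summary, background correction and normalization are not given in the sources used here, and hg19 is the build in the submitters' processing notes. Unstated scaling can shift small differences between arrays.

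Clusters were named through the platform annotation, with symbols updated by gene identifier against RefSeq (GRCh38.p14): 14733 clusters had 1 symbol (14705 matched by identifier), 2875 several and 1100 none. A gene's brightest cluster was used. With 1 array per group no test was made, and precision is limited by the number of arrays. The members and lists were chosen with earlier results of these data known. All 10 members were named, and from each list the genes past 4-fold or, where none was, the gene with the largest difference above background. RBPJ, NUMB, MAML1, MAML2, GFI1, SPINK4, BEST2, INSM1 and the markers named lie outside this rule. The counting step was tested on simulated data in which bright genes were changed 8-fold. That test does not cover dim genes or differences near the limit. Alternatives tried were median centring, quantile normalization, no filter on background, a filter at the 99th percentile, values floored at background, the median of several clusters, and folds of 2 and 8; counting shared clusters was added after the data were seen. Computation used pandas 2.3.3 and numpy 2.4.6 in Python 3.11.15, and plots used matplotlib 3.10.9.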

Additional observations from a re-analysis of the deposited data

How the results depend on the processing

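Among genes with a cluster of their own, the log2 difference of every member kept its sign under quantile normalization and median centring. Each of these members had 1 cluster, so taking the median of several clusters could not change its difference. Flooring at background brought ATOH1 to 0, 0.23 and 0.23 for MDA-MB-436 minus MCF10A, HT-29 minus MCF10A and HT-29 minus MDA-MB-436. The 2 members at least 4-fold higher in HT-29 than in MDA-MB-436 became 1 after quantile normalization (ATOH1 left), at the 99th percentile filter, with the floor and at a fold of 8. At a fold of 2, 2 members were higher in HT-29 than in MCF10A and 4 lower in MDA-MB-436 than in MCF10A, against 0 and 0 at 4-fold. Pathway genes past 4-fold between the mammary lines numbered 1 after median centring, at the 99th percentile filter and with the floor, against 3, while for HT-29 against MDA-MB-436 they numbered 5 with the floor, against 8. For quantile normalization and centring the cause was not tested, and the other settings change what is counted. Of 171 values under alternatives, 10 summary values and 3 gene values moved. The 171 include the member differences under the median of several clusters, which could not move. No paired analysis was possible because each group had 1 array. Dim signal limits HEY1, ATOH1, NOTCH3 and the DLL1 cluster.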
